A study of Saccharomyces cerevisiae with 23 samples.

Results

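The proteasome subunit genes of Saccharomyces cerevisiae were followed through a synchronized meiosis. The 33 genes were taken by name, as the 14 subunits of the 20S core particle (PRE and PUP genes and SCL1), the 8 large subunits of the base (RPT1 to RPT6, RPN1 and RPN2), the ubiquitin receptors RPN10 and RPN13, and the 9 subunits of the lid (RPN3, RPN5 to RPN9, RPN11, RPN12 and SEM1). All 33 were found among the 6867 named gene rows and all passed the filter of a mean of 1 FPKM or more over the 23 libraries, which 6560 genes passed. FPKM counts sequenced fragments per unit of gene length and per unit of library size. They lie on 13 chromosomes, and the closest neighbours among them, RPT4 and RPN8, are 2206 bases apart on chromosome XV.

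The cells were of 1 strain, A 33606, in which both IME1, the master activator of meiotic entry, and IME4, an RNA methyltransferase gene needed for sporulation, are under the copper-inducible CUP1 promoter. Cells from saturated rich medium were diluted overnight in BYTA, a presporulation medium, and moved to SPO, a sporulation medium, and 25 mM CuSO4 was added after 2 h there. There was 1 total RNA library per time, at 0 h, at every 0.25 h from 2 to 6 h, and at 6.5, 7, 7.5, 8 and 10 h, so no time has a replicate and all libraries share the strain and its promoters. Consecutive libraries were grouped into windows of 2 to 3 h (n = 5), 3.25 to 4.5 h (n = 6), 4.75 to 6 h (n = 6) and 6.5 to 10 h (n = 5). They are successive times of 1 course and not replicates. A p-value between windows sets the difference of their means against the spread within all windows, which includes change over time. A p-value for a curve over time sets it against the spread around that curve.

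As background, the 26S proteasome degrades proteins tagged with ubiquitin. The core particle is a stack of rings, with outer rings of alpha subunits that gate the entrance and inner rings of beta subunits, of which Pre3, Pup1 and Pre2 carry the proteolytic sites. The regulatory particle caps it: the Rpt ATPases of the base unfold the substrate and thread it in, Rpn10 and Rpn13 bind ubiquitin chains, and the lid, through Rpn11, removes the chains. In yeast the genes are induced together by the transcription factor Rpn4, which binds an element called PACE and is itself degraded by the proteasome. During meiosis the proteasome has been placed on chromosome axes and is needed for the removal of many regulators.

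Most promoters of the subunit genes held PACE, the element described above as bound by Rpn4. The genes were chosen by name, but PACE was already tied to proteasome genes, so its high share among them is no independent finding. PACE, GGTGGCAAA, was searched on both strands in the 300 bases from 250 before to 50 after the start of each coding region, in the RefSeq genome of build R64. It stood in 27 of the 33 promoters (81.8%), against 72 of the 6001 promoters of all protein-coding genes (1.20%), a count that includes these 27. Each of the 27 held 1 copy, which ended between 75 and 174 bases before the start codon, with a median of 111. Elsewhere among the related genes it stood in ECM29, UBI4, UBA1, CDC48 and YAP1. By role, it stood in 6 of 7 alpha ring genes, 6 of 7 beta ring genes, all 8 base genes, neither of the 2 receptors and 7 of 9 lid genes. The 6 without it were PRE5, PUP1, RPN10, RPN13, RPN8 and SEM1. Its last 8 bases, GTGGCAAA, which lie within PACE and were searched after the promoters had been seen, stood in 30 of the 33 promoters (90.9%) and in 2.4% of all promoters. PRE5, PUP1 and RPN8 held this shorter form, and RPN10, RPN13 and SEM1 held neither. The whole promoter of PRE2, which encodes the chymotrypsin-like subunit, is shown to place the element in its context. The surroundings of the element are shown for PRE9 and RPN2, which have the widest range and the highest gain among the genes below. PUP1 and RPN8 are shown for the shorter form. All are written 5′ to 3′ on the gene's strand with the motif in capitals. PRE2 lies on the plus strand at chrXVI:732099-732398, PRE9 on the plus strand at chrVII:761223-761251, and RPN2 on the minus strand at chrIX:220801-220829. PUP1 lies on the minus strand at chrXV:631891-631918 and RPN8 on the minus strand at chrXV:817085-817112.
PRE2: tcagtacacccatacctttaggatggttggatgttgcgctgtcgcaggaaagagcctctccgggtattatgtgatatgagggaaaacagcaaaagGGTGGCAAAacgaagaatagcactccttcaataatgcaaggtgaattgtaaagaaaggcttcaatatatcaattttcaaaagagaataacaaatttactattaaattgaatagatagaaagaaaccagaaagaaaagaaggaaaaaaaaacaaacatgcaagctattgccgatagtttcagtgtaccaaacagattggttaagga
PRE9: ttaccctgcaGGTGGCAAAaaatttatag
RPN2: atttattttcGGTGGCAAAactggataca
PUP1: acccggccgaGTGGCAAAataccaaaaa
RPN8: ggatacctcaGTGGCAAAtcgttactca

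**Figure D1:**
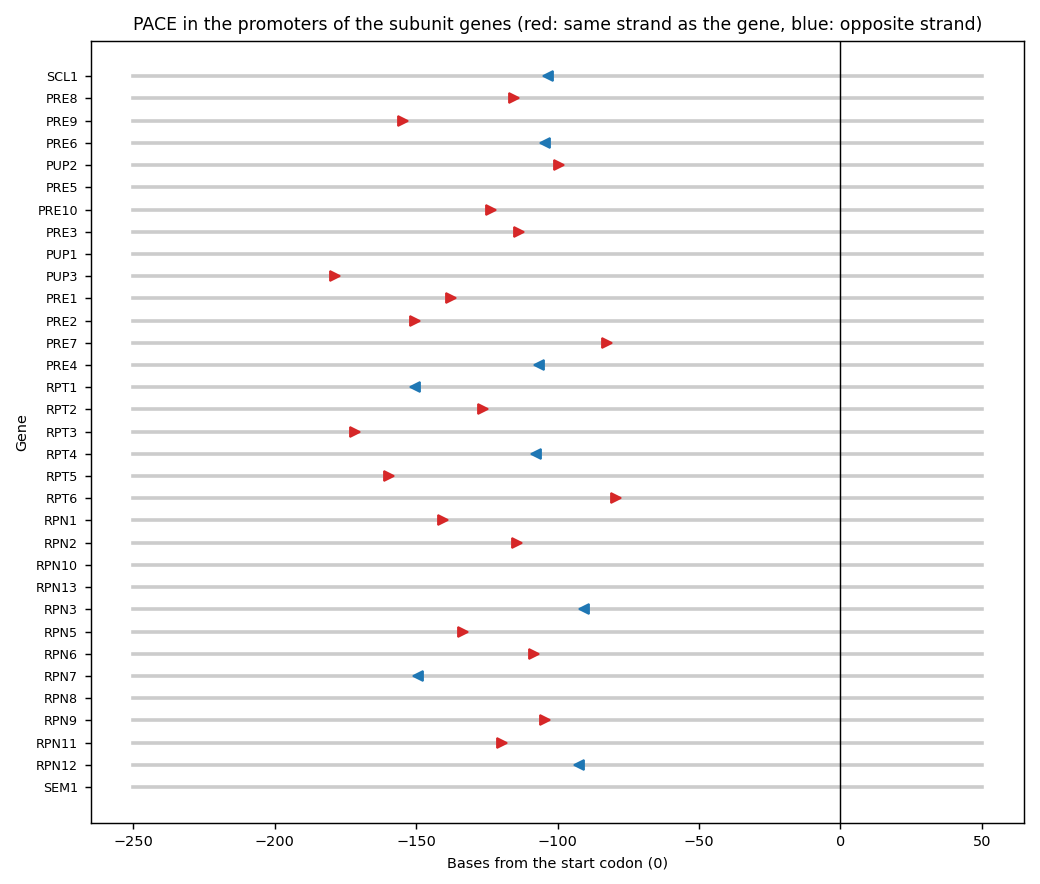
Position of PACE in the promoter of each of the 33 subunit genes, in bases from the start codon, with the searched stretch as a grey bar and arrowheads for the strand of the match. The matches end 75 to 174 bases before the start codon in 27 genes, and 6 genes have none.

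Sites of meiotic regulators were searched in the same promoters. The core of URS1, the site through which Ume6 and Ime1 act on early meiotic genes, AGCCGCC on either strand, stood in 1 of 33 promoters (3.03%), that of PRE3, and in 2.17% of all promoters. The site of the mid-meiotic activator Ndt80, searched as GNCACAAA on either strand, stood in 0 of 33, against 4.32% of all promoters. These searched motifs do not overlap PACE by their letters. Absence in the window says only that these letters are not there.

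The libraries were of uneven depth. The bounds that the authors deposited with each FPKM imply 368883 to 1467241 fragments on listed genes, lowest at 7.5 h and highest at 4.75 h, and 591 to 23204 fragments on the 33 genes together in the same libraries. The share of the listed fragments on the 33 genes ran from 0.160% at 7.5 h to 1.58% at 4.75 h. The median FPKM of all tested genes also moved, from 2.55 at 7.5 h to 19.5 at 4.75 h, so the changes below are given beside that of all genes and again after median-of-ratios scaling, which divides each library by its median ratio to the typical library. The small nucleolar RNA snR39b took 52.1% of the summed FPKM at 0 h, 48.1% at 2 h, 25.9% at 4.75 h and 9.04% at 7.5 h, and its part in the course of the subunit genes was not tested. The stage genes followed the labels: IME1 was at 818 FPKM at 2 h and 7908 at 2.25 h, NDT80, of the mid-meiotic activator, at 1.18 at 2 h and 364 at 6 h, and the spore wall gene DIT1 at 1471 at 10 h.

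The 33 genes shared a course of gain and loss. Their median stood at 29.1 FPKM at 0 h, 43.3 at 2 h, 79.7 at 3 h, 60.1 at 4 h and 163 at 4.75 h. It then stood at 52.0 at 6 h, 6.40 at 7.5 h and 17.9 at 10 h. The highest library was that of 4.75 h for 24 genes, 4.5 h for 7 and 5 h for 2, RPN8 and RPN13. After scaling, which divides the 4.75 h library by the largest factor of all, 1.80, 14 genes were highest at 4.5 h, 6 at 4.75 h, 5 at 5.25 h and 2 at 5 h. The others were then highest elsewhere, RPN8 and SEM1 at 7.5 h and RPN11 at 0 h among them. The lowest library as deposited was that of 7.5 h for 27 genes, 8 h for 4 and 10 h for 2. After scaling, which divides the 7.5 h library by 0.252, the median of the 33 was 25.4 at 7.5 h, 15.5 at 8 h and 18.7 at 10 h. The median of the subunit genes was 3.25 times that of all tested genes at 0 h, 10.2 times at 4.5 h and 1.47 times at 10 h. In bulk samples fewer cells with a transcript and less of it per cell cannot be told apart.

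**Figure D2:**
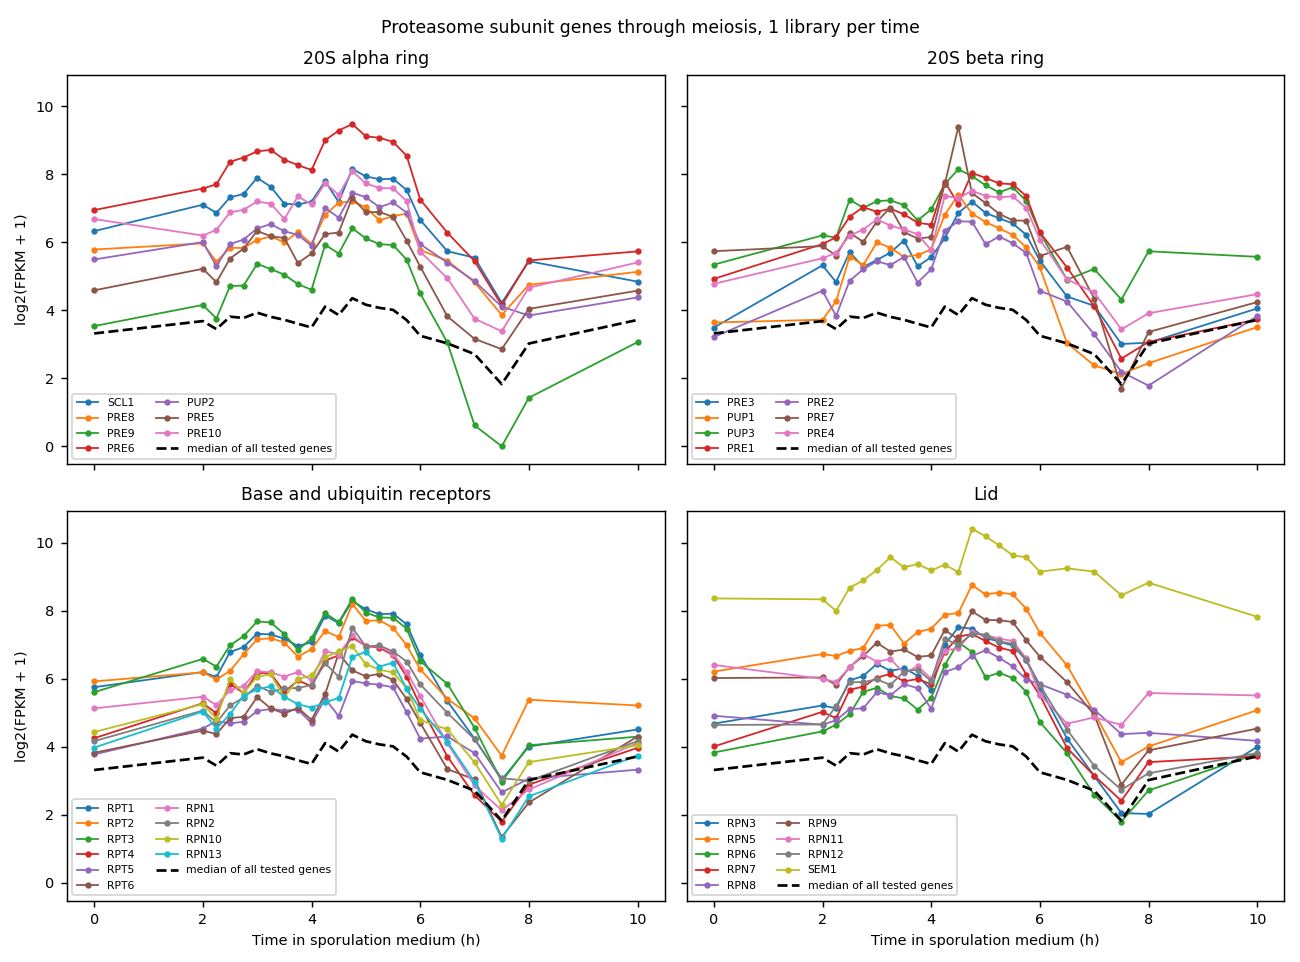
FPKM of each subunit gene, as log2(FPKM + 1), against hours in sporulation medium, in 4 panels by role, with the median of all tested genes as a dashed line; each point is 1 library. As deposited, most genes climb to 4.5 to 5 h and reach their lowest value at 7.5 h. SEM1 is the highest gene in every library but that of 4.5 h, where PRE7 is.

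A smooth curve over the 22 libraries from 2 h on described this course. All 33 genes were called with limma (adjusted p from 1.65e-07 to 0.000201, with the highest and lowest fitted points 1 or more apart on the log2(FPKM + 1) scale). By their larger departure from the fitted 2 h value, 7 were counted as rising and 26 as falling, where 31.1% and 52% of all tested genes were called. That split reflects which arm is longer: the fitted rise from 2 h had a median of 1.61 and the fitted fall below the 2 h value a median of 2.21, and 28 genes passed 1 in both. Without the 10 h library 3 were counted as rising, without that of 2.25 h 4, and without that of 7.5 h 12. After scaling, 12 were called rising and 20 falling (38.1% and 39.9% of all genes), and RPN11 was no longer called. The fitted range had a median of 3.89 over the 33 genes and 2.65 over all genes, from 1.97 for SEM1 to 5.14 for PRE9. After scaling these medians came to 2.57 and 2.29. The fitted maxima lay between 4.5 and 4.75 h, latest for RPN8 and SEM1. After scaling, 31 stayed between 4.45 and 4.85 h, and those of RPN8 and SEM1 moved to 6 and 6.75 h.

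**Figure D3:**
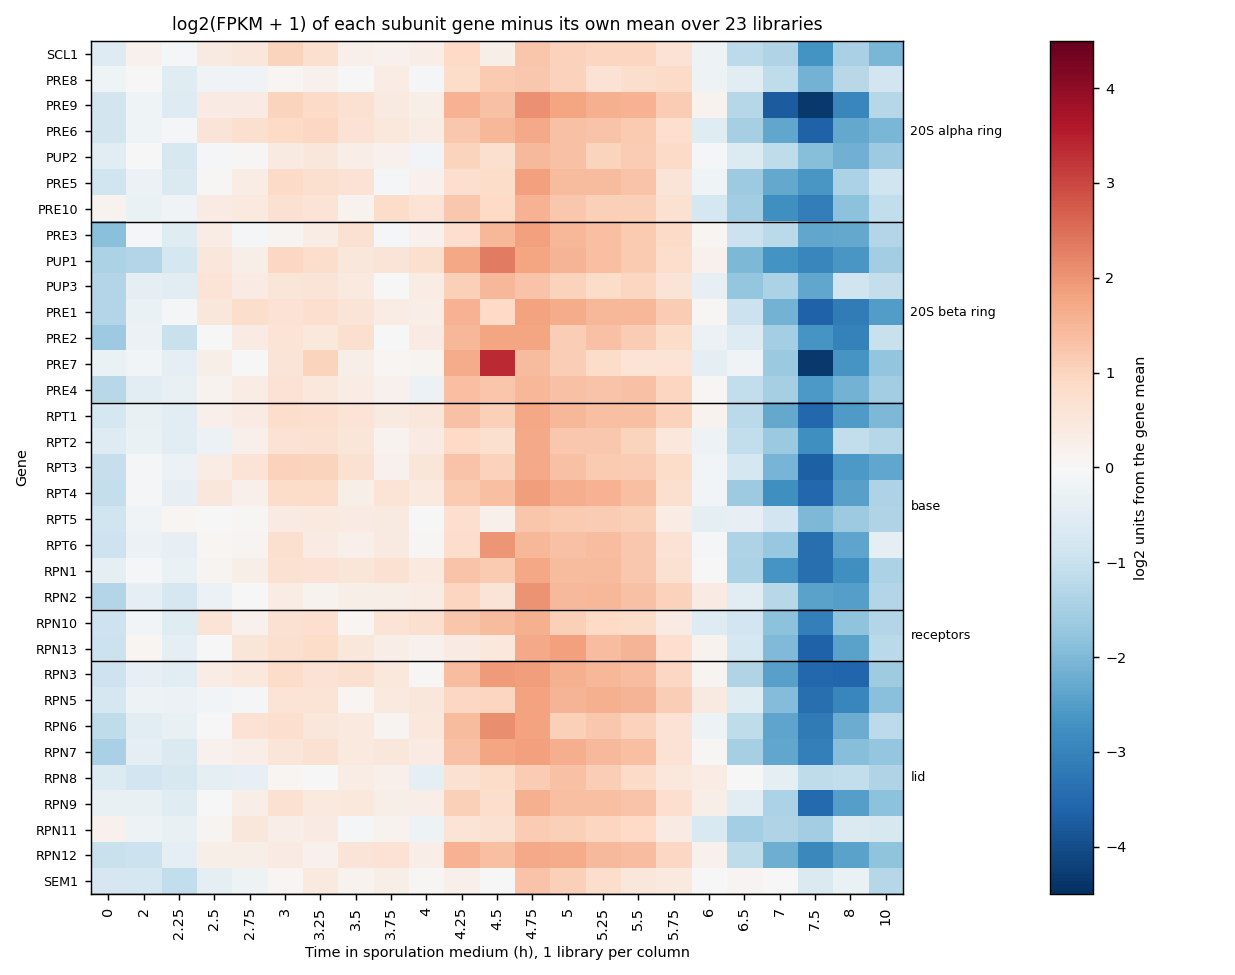
Each row is a subunit gene and each column 1 library; the colour is log2(FPKM + 1) minus the gene's own mean over the 23 libraries, with white at the mean. The columns from 4.25 to 5.75 h are red for nearly every gene and those from 6.5 h on are blue for most. SEM1 and RPN8 are the palest rows, and SEM1 is near its own mean at 6.5 and 7 h.

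The levels differed widely between subunits that the assembled particle holds in equal number. The mean FPKM, which is per length, had a median of 71.9 over the 33 genes. RPT5 had the lowest, SEM1 the highest, at 609, and PRE6 the next, at 310. SEM1 is the shortest of the genes at 270 bases, where FPKM is least exact. None of the 33 overlaps another listed row by more than 6.62% of its length.

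In the alpha ring, PRE6 (alpha4) had the highest mean level and PRE9 (alpha3) the lowest. PRE9, the only core subunit that yeast can live without, stood at 10.6 FPKM at 0 h and at 16.8, 12.5, 25.2, 25.4 and 40.2 from 2 to 3 h. Its 6 libraries from 4.75 to 6 h ran from 21.6 through a median of 60.0 to 83.9. At 6.5, 7, 8 and 10 h it was at 7.30, 0.533, 1.69 and 7.36, and at 7.5 h it was listed at 0. The late values thus lay below every earlier one, and at 7, 7.5 and 8 h they rest on at most 3 implied fragments. PRE6, the neighbour of Pre9 in the ring, stood at 122 at 0 h and at 190 to 407 from 2 to 3 h. It had its highest library at 4.75 h, with 710, and its lowest at 7.5 h, with 16.7. SCL1 (alpha1) had the smallest fitted rise of the 33, at 0.71, with 136 FPKM at 2 h and 284 at 4.75 h.

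In the beta ring, the genes of the 3 active subunits had the 3 lowest means, of 53.6 (PRE3), 50.6 (PUP1) and 38.5 FPKM (PRE2). PRE2, of the chymotrypsin-like subunit beta5, stood at 8.27 FPKM at 0 h and at 22.8, 13.2, 28.2, 35.9 and 42.3 from 2 to 3 h. It reached 97.0 at 4.5 h and 96.4 at 4.75 h, and was at 18.1, 8.80, 3.55, 2.45 and 13.2 from 6.5 to 10 h. The late window lay below the window of 4.75 to 6 h, whose lowest library was 22.8 at 6 h, and overlapped the window of 2 to 3 h. PRE3, of the caspase-like subunit beta1, stood at 10.2 at 0 h and 38.9 at 2 h. Its windows had medians of 38.9 (2 to 3 h), 58.0, 98.1 and 15.6 (6.5 to 10 h). PUP1, of the trypsin-like subunit beta2, was at 12.2, 18.2, 46.8, 39.1 and 62.8 from 2 to 3 h and reached 167 at 4.5 h. Its fitted rise of 2.76 was the largest of the 33, and its libraries of 6.5 to 10 h, at 3.36 to 10.3, all lay below its value at 0 h, 11.5. PUP3 (beta3) had the highest mean of the beta ring, 123 FPKM, and PRE1 (beta4) the largest fitted fall, 3.30.

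In the base, RPT3 had the highest mean level, 138 FPKM, and RPT5 the lowest, and both encode ATPases of the same ring. RPT3 ran from 81.0 to 205 between 2 and 3 h, reached 323 at 4.75 h and was at 6.86 at 7.5 h. RPT5 ran from 22.2 to 32.1 between 2 and 3 h, reached 60.2 at 4.75 h and was at 5.33 at 7.5 h. RPN2, a large scaffold that anchors Rpn13, was at 32.4, 25.1, 36.1, 42.6 and 54.3 from 2 to 3 h. Its 6 libraries from 4.75 to 6 h ran from 56.1 through 116 to 180, all above the early window. Of the receptors, RPN10 reached 123 at 4.75 h and RPN13 110 at 5 h, and both were lowest at 7.5 h, with 3.89 and 1.46.

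In the lid, SEM1 had the highest mean and RPN6 the lowest, 43.0 FPKM. SEM1 encodes a small acidic protein that also belongs to other complexes, among them the mRNA export complex TREX-2. It stood at 328 at 0 h, at 322, 254, 408, 474 and 586 from 2 to 3 h, and at 1358 at 4.75 h. From 6.5 to 10 h it was at 606, 567, 350, 452 and 225. These overlap its early values, and the other 32 genes were at most at 83.0 in those libraries. RPN8, the partner of the deubiquitinase Rpn11, also had late values that overlapped its early ones: it was at 24.1 to 47.6 from 2 to 3 h, 113 at 5 h and 45.2, 33.1, 19.7, 20.3 and 17.0 from 6.5 to 10 h. RPN11 itself was at 83.8 at 0 h, 163 at 4.75 h and 24.0 at 7.5 h. RPN6, which clamps the lid to the core, and RPN3 had their highest libraries at 4.5 h, with 134 and 182. RPN5 had the next highest mean of the lid after SEM1, 172 FPKM, with 73.1 at 0 h and 431 at 4.75 h.

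The first comparison sets the start of sporulation medium against 2 h in it; the labels do not say whether the 2 h sample was taken before or after copper, and IME1 was at 40.4 FPKM at 0 h and 818 at 2 h. At 2 h 29 of the 33 genes had a higher value than at 0 h, and 22 did after scaling. The median difference was 0.62 on the log2(FPKM + 1) scale, against 0.33 over all tested genes (0.22 and 0 after scaling). On that scale 6 of the 33 were at least 2-fold higher, where 22.3% of all tested genes were. They were PRE3 (10.2 and 38.9 FPKM), PRE2, RPN13 (14.7 and 31.8), RPT4 (18.0 and 37.8), PRE1 (29.3 and 60.6) and RPN7 (15.1 and 31.6). None was 2-fold lower (8.96% of all genes were), and PRE10 (102 and 72.3), RPN11 and RPN8 (29.1 and 24.1) had the most negative differences. With 1 library at each time there is no replicate check, and after scaling only PRE3 stayed past 2-fold, as did 13.1% of all genes.

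From 2 to 3 h against 3.25 to 4.5 h, no subunit gene passed the test. The difference had a median of 0.61 on the log2 scale, against 0.05 over all genes (0.51 and −0.03 after scaling). All 33 differences were positive, and 32 were after scaling. None was called with limma (smallest adjusted p 0.267, 5 with an unadjusted p under 0.05), where 0.0762% of all genes were called higher and 0.152% lower. The largest differences were those of PUP1 (1.19 ± 0.43, SE), PRE7 (1.04 ± 0.60) and RPN12 (0.87 ± 0.37), and the smallest those of SCL1 (0.02 ± 0.31) and RPN11 (0.18 ± 0.32). From 3.25 to 4.5 h against 4.75 to 6 h, none was called either (smallest adjusted p 0.181 with limma, 1 with an unadjusted p under 0.05), where 3.22% of all genes were called higher and 0.168% lower. The median difference was 0.37 against 0.14 over all genes, from −0.40 ± 0.57 for PRE7 and −0.13 ± 0.38 for RPN10 to 0.73 ± 0.37 for RPN5, 0.78 ± 0.39 for RPN13 and 0.86 ± 0.33 for RPN2. After scaling the medians were 0.22 and 0.001. With the windows moved by 1 library the median difference turned to −0.25 (−0.21 over all genes), and without the 6 h library it was 0.61.

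Across the whole climb, 8 genes passed the test. This comparison, of 4.75 to 6 h with 2 to 3 h, was added after the data had been seen, because the neighbouring windows divide the rise. RPN2, RPN5, RPN8, RPN12, SEM1, PRE3, RPN7 and PUP2 were higher at an adjusted p under 0.05 with limma and a change of at least 1, and 9.05% of all tested genes were called higher. That is 5 of 9 lid genes and 1 each of the alpha ring, the beta ring and the base. All 33 differences were positive, with a median of 0.98 against 0.22 over all genes, and 24 had an unadjusted p under 0.05. After scaling the medians were 0.74 and 0.002.

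RPN2 rose most, from a mean of 38.1 ± 11.0 FPKM (SD, n = 5) to 114 ± 41.4 (SD, n = 6), a log2 change of 1.52 ± 0.35 (SE) with an adjusted p of 0.00716 in limma. RPN5, a lid scaffold subunit, went from 125 ± 35.9 to 323 ± 95.2 (1.34 ± 0.39, adjusted p 0.0271 in limma). RPN8 went from 33.1 ± 9.17 to 85.1 ± 22.6 (1.33 ± 0.30, adjusted p 0.00637 in limma). RPN2 and RPN8 were the genes whose windows did not overlap, as was so for 9.62% of all genes. RPN12, the lid subunit that joins last, changed by 1.33 ± 0.37, SEM1 by 1.19 ± 0.30 and PRE3 by 1.18 ± 0.35. RPN7, a lid subunit, changed by 1.16 ± 0.37 and PUP2, the alpha5 subunit, by 1.02 ± 0.32. PRE2 and PUP1 had like differences, of 1.04 ± 0.46 and 1.22 ± 0.43, without passing (adjusted p 0.136 and 0.0639 in limma). The smallest differences were those of SCL1 (0.35 ± 0.31) and RPN10 (0.52 ± 0.40). The count rests on few libraries: it was 3 without the 2 or the 2.25 h library, 4 without that of 2.75, 4.75, 5.25 or 5.5 h, and 5 without that of 2.5 or 5 h. It was 13 without the 3 h library, 12 without that of 7.5 h and 18 without that of 6 h. Without these, 782, 851 and 725 of all 6560 tested genes were called in either direction. With each library left out in turn that number ran from 450 to 954. The count of subunit genes was 4 after scaling (5.2% of all genes) and 1 with the windows moved by 1 library.

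The fall was larger and took in every gene. From 4.75 to 6 h to 6.5 to 10 h, all 33 fell (adjusted p from 9.05e-07 to 0.00405 in limma), where 43.8% of all tested genes fell. The median change was −2.88 on the log2 scale, against −0.99 over all genes, and was alike by role, at −2.84 in the alpha ring, −2.82 in the beta ring, −3.09 in the base and −3.05 in the lid. For 29 genes every late library lay below every library of 4.75 to 6 h, as was so for 16.4% of all genes. Scaling moved the median of all genes to −0.06 and that of the 33 to −1.72, with 28 of them still called lower, against 17.1% of all genes. Without the libraries of 7 and 7.5 h, which had the lowest scaling factors, all 33 were called lower, with a median of −2.66.

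PRE9 fell most, from a mean of 56.2 ± 21.4 FPKM (SD, n = 6) to the late values given above, 1 of them listed at 0, a log2 change of −4.09 ± 0.49 (SE) with an adjusted p of 2.29e-06 in limma. PRE1 went from 193 ± 65.5 to 15.6 ± 12.8 (SD, n = 5; −3.75 ± 0.41, adjusted p 1.02e-06 in limma). RPN3, a lid subunit, went from 121 ± 43.7 to 9.39 ± 6.81 (−3.74 ± 0.44). Of the active subunits, PUP1 changed by −3.50 ± 0.43, PRE3 by −2.77 ± 0.35 and PRE2 by −2.75 ± 0.46. SEM1 fell least, from 934 ± 290 to 440 ± 157 (−1.11 ± 0.30, adjusted p 0.00405 in limma). After scaling its difference was 0.10, of the opposite sign, and without the 4.75 or the 10 h library it came to −0.99 and −0.89, short of the threshold of 1. RPN8 came next, from 85.1 ± 22.6 to 27.1 ± 11.9 (−1.67 ± 0.30), and was not called after scaling (−0.49). RPN11 (−0.60), PRE8 (−0.72) and RPT5 (−0.87) were the other genes not called after scaling.

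**Figure D4:**
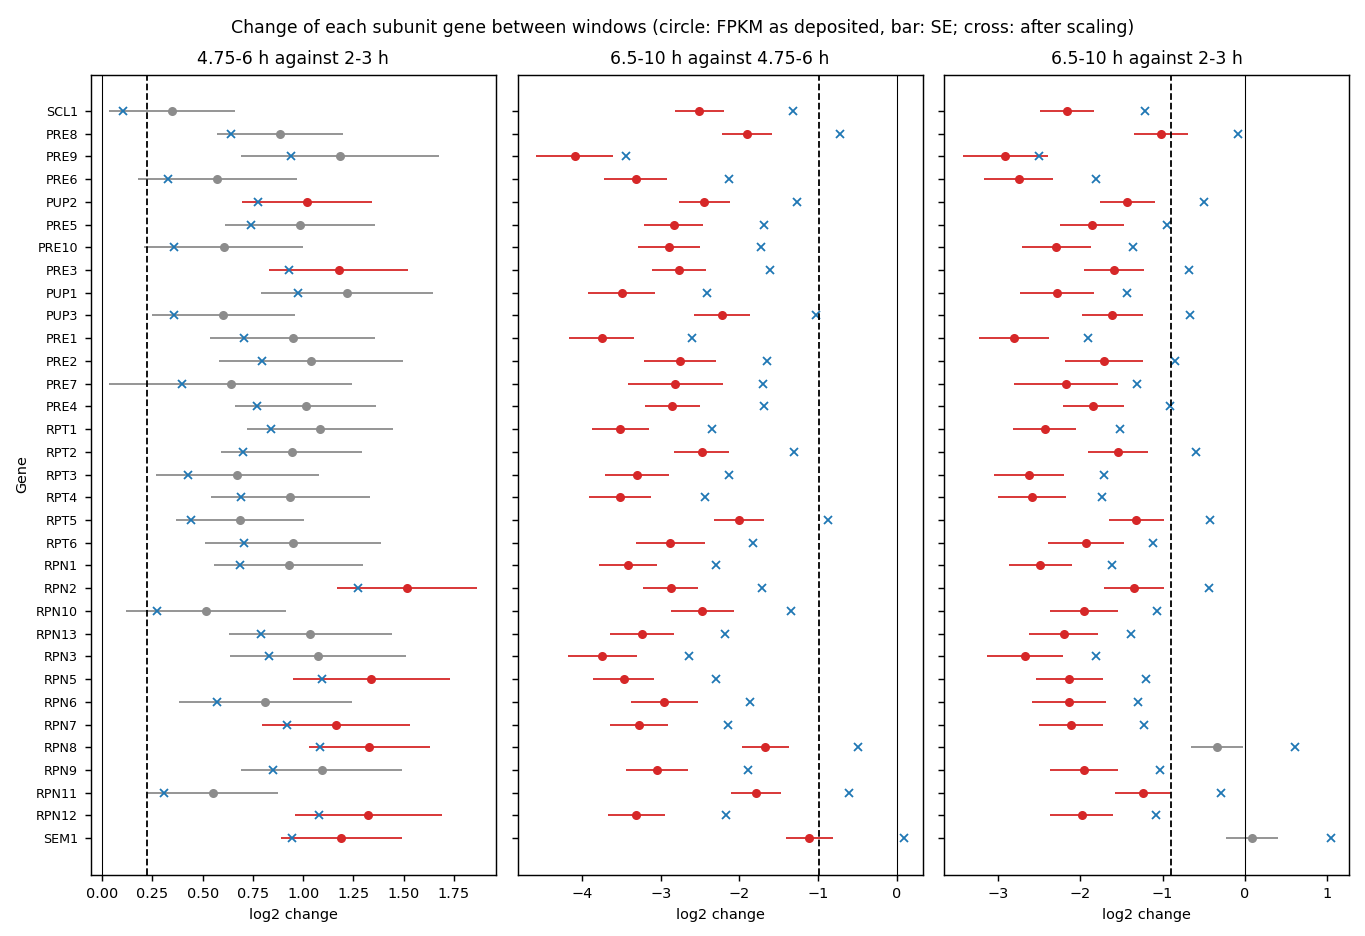
log2 change of each subunit gene between windows, in 3 panels; circles with SE bars are FPKM as deposited (red where called with limma, grey where not), crosses are values after scaling, and the dashed line is the median of all tested genes. In the middle panel every circle is left of the dashed line at −0.99, and SEM1, at −1.11, is nearest to it.

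Between single libraries, the values were already lower by 6 h. From 4.75 to 6 h the authors' bounds lay apart, downward, for all 33 genes and for 57.3% of all tested genes. At that step the median of the 33 dropped 3.14-fold and that of all genes 2.29-fold. From 4.75 to 7.5 h the medians dropped 25.5-fold and 7.63-fold. From 7.5 to 10 h the bounds lay apart upward for 23 of the 33 genes and for 51.9% of all genes, with median ratios of 2.79 and 4.76. Upward from 2 to 4.75 h they lay apart for all 33 genes, against 42.8% of all genes. After scaling, the median of the 33 at 6 h and at 7.5 h was 0.729 and 0.280 times that at 4.75 h. At 10 h it was 0.736 times that at 7.5 h, so this gain turned into a loss. At 4.75 h it was 2.21 times that at 2 h. These pairs have no replicates, and the bounds cover only the error the authors' program gave within a library.

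The late window also lay below the early one. From 2 to 3 h to 6.5 to 10 h, 31 genes fell (adjusted p under 0.05 in limma), where 41.1% of all tested genes fell, with a median of −1.98 against −0.90. The largest falls were those of PRE9 (−2.91 ± 0.51), PRE1 (−2.80 ± 0.43) and PRE6 (−2.75 ± 0.41). RPN8 (−0.34 ± 0.31, adjusted p 0.371 in limma) and SEM1 (0.08 ± 0.31, adjusted p 0.847 in limma) did not pass. After scaling, 20 were called lower and SEM1 was called higher, at 1.04, where 22.9% and 19.7% of all genes were called. The medians were then −1.11 for the 33 and −0.18 for all genes. At 10 h 23 genes lay below their 2 h value with bounds apart (23.6% of all genes), and none lay above.

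The profiles were alike in shape beyond their levels. Over the 23 libraries, after scaling, the 528 pairs of subunit genes had a median Pearson r of 0.82, from −0.33 to 0.98. Against the median of the other 32, 28 genes had an r of at least 0.8, highest for RPT1 at 0.97. The lowest were RPN8 (0.47), RPN11 (0.43) and SEM1 (0.09), all of the lid, while the other lid genes were between 0.93 and 0.96. These are descriptions of points that share libraries, and carry no p. Of 3699 other genes of sufficient level and length, the closest to the median profile were CDC48 (0.97), UBP6 (0.96), SMN1 (0.95), MCH1, RAD52 and ARE2 (0.94 each), SGT2 and DAS1 (0.93 each). CDC48 encodes the ATPase that extracts ubiquitylated proteins for the proteasome, and UBP6 a deubiquitinase bound to Rpn1. RAD52 encodes a recombination protein. The 100th closest of the 3699 genes still had an r of 0.83 with the median profile.

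The changes of the 6 genes without PACE overlapped those of the 27 with it, with SEM1 and RPN8 beyond them at the smaller end of the late fall; no test was run between them. From 4.75 to 6 h to 6.5 to 10 h their median change was −2.65, from −3.50 for PUP1 to −1.11 for SEM1, and that of the 27 with it was −2.89, from −4.09 to −1.79. Over the climb the medians were 1.11 without and 0.95 with the element. From 2 to 3 h to 6.5 to 10 h all 27 with it and 4 of the 6 without it were called lower, where 41.1% of all tested genes were. The 3 least alike in profile were SEM1 (r of 0.09) and RPN8 (0.47), without the element, and RPN11 (0.43), which holds it as shown for PRE9 on the same strand. Of the others without it, PUP1 had an r of 0.92, RPN10 0.91, RPN13 0.88 and PRE5 0.84 with the rest.

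RPN4, the activator of these genes, had its own course early on. It stood at 80.5 FPKM at 0 h and 83.8 at 2 h, and at 46.6, 49.5, 45.0 and 47.2 from 2.25 to 3 h. It was at 103 at 4.25 h, 113 at 5.25 h, 37.4 at 6 h, 4.22 at 7.5 h and 16.2 at 10 h. Thus it was higher at 0 and 2 h than from 2.25 to 4 h, while the median of the subunit genes was above its 2 h value from 2.5 to 6 h, and RPN4 was high again from 4.25 to 5.5 h. It fell with them late (−3.12, adjusted p 1.42e-06 in limma), and its r with their median profile was 0.78. UBR2, the ubiquitin ligase that targets Rpn4, stood at 12.5 at 2 h, 64.6 at 2.5 h, 110 at 4.75 h and 3.76 at 7.5 h. All 8 genes of the list on Rpn4 control (RPN4, UBR2, MUB1, RAD6, PDR1, PDR3, YAP1 and HSF1) fell from 4.75 to 6 h to 6.5 to 10 h, UBR2 most (−3.49), where 43.8% of all genes fell. Over the climb none of the 8 was called, where 9.05% of all genes were called higher.

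Genes of assembly, activators and ubiquitin supply followed less uniformly. Of the 37 genes in the 4 lists, 31 fell and 1 rose in the late window, and 3 rose over the climb, where 43.8% of all tested genes fell late and 9.05% rose over the climb. After scaling, 3 of 9 assembly factors, 4 of 9 activators, 8 of 11 supply and shuttle genes and 7 of 8 genes on Rpn4 control were called lower late, against 17.1% of all genes. Of 9 assembly factors 6 fell as deposited, led by UMP1 (−3.63), the chaperone of core maturation, with NAS2 (−2.30) and HSM3 (−1.88), which both assist the base. UMP1 stood at 157 FPKM at 2 h, 600 at 4.75 h and 14.4 at 7.5 h. Of 11 genes for ubiquitin supply and shuttles 10 fell, UFD1 (−3.67), DSK2 (−3.21) and CDC48 (−3.14) most. UBA1, the ubiquitin-activating enzyme, was not called (−0.57) and was back at 57.7 at 8 h and 72.3 at 10 h. Of 9 activators and associated factors 7 fell, led by HUL5 (−3.56), UBP6 (−3.39) and ECM29 (−3.19). CIC1 rose (1.43, adjusted p 0.00116 in limma), from 0.306 at 2 h to 23.4 at 10 h. That 2 h value is near 0 and lay below the 0 h value, with a log2 difference of −1.82 between 1 library each. Cic1 was described as a proteasome adaptor and also acts in ribosome assembly. The genes that rose over the climb were CIC1 (1.62), RAD23 (1.56), a shuttle for ubiquitylated proteins, and NAS2 (1.15), which did not pass after scaling (0.91).

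**Figure D5:**
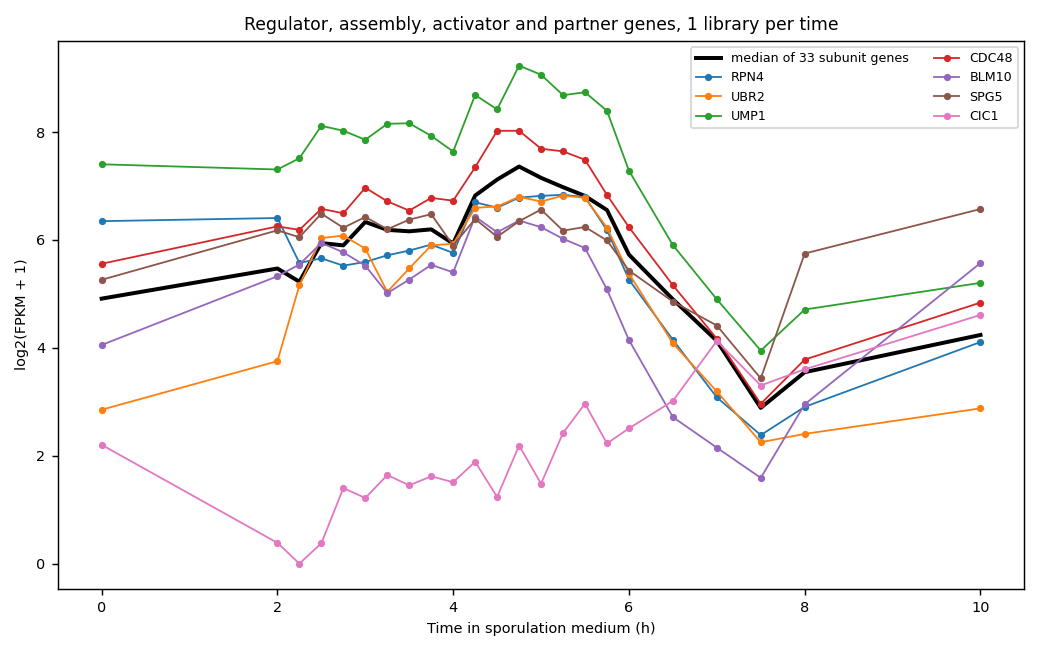
log2(FPKM + 1) of RPN4, UBR2, UMP1, CDC48, BLM10, SPG5 and CIC1 against hours in sporulation medium, with the median of the 33 subunit genes as a thick black line; each point is 1 library. UMP1 and CDC48 run along the subunit genes, CIC1 climbs to 23.4 FPKM at 10 h, and BLM10 and SPG5 return to 46.6 and 94.2 FPKM there.

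Some regulators came back at the end while the subunit genes stayed low. BLM10, which encodes an alternative activator that caps the core, stood at 81.1 FPKM at 4.75 h, 2.01 at 7.5 h, 6.74 at 8 h and 46.6 at 10 h. SPG5, a regulator of proteasome assembly in stationary phase, stood at 9.80 at 7.5 h, 52.8 at 8 h and 94.2 at 10 h, level with its highest earlier library, 93.6 at 5 h. Both fell by the window test, which averages these libraries, but after scaling SPG5 did not (0.05). Over the same libraries the median of the subunit genes was 6.40, 10.7 and 17.9, and that of all tested genes was 2.55, 7.12 and 12.1. BLM10 and SPG5 were named here after their values had been seen.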

How the data were processed

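Total RNA from 23 times of 1 strain was made into random-primed libraries, per the labels' protocols. The authors deposited, per the file headers, a table for each library that lists FPKM by gene beside a lower and an upper bound. Bowtie, Cufflinks 2.2.1 and the builds R64 and sacCer3 are named in the submitters' processing notes. The strand setting was not stated. FPKM depends on all fragments of a library, so an abundant RNA can shift the values of all others. For snR39b only the share of summed FPKM, which is per length, was taken, and its effect on other genes was not tested. That share did not fall at every step, with 10.9% at 6 h and 21.2% at 6.5 h. Fragments behind a value were taken from the bounds, by squaring 2 times the FPKM over its distance to the upper bound; these were too seldom whole for a count test.

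Of 7132 rows, 11 without an estimate and 254 without a name were left out. Genes whose mean reached 1 FPKM went into two-sided tests by limma 3.58.1 (R 4.3.3, moderated with a mean-variance trend). The values were log2(FPKM + 1), a scale that understates changes of low genes. Times from 2 h on were fitted by a natural spline of 4 degrees of freedom, or by windows. Calls needed a Benjamini-Hochberg adjusted p under 0.05 over all 6560 genes and a change or fitted range of at least 1. The fits were run on simulated data with independent noise around flat means and an added step or bump. Such data lack the shifts between libraries and within windows seen here, so no conclusion is drawn from them. Alternatives were other pseudocounts, filters, scalings, spline degrees, window borders and each library left out. The 2 h library's timing relative to copper is not given in the labels. Members and gene lists were chosen with earlier results of these data known. Named were the active subunits, the highest and lowest level in each role, the largest and smallest changes, RPN4, up to 3 leading genes of each list and the 8 closest profiles; others are marked. The comparison over the whole climb, the search for the shorter motif and the alternative without 7 and 7.5 h were chosen after seeing the data. Profile likeness was taken over genes with a mean of 10 FPKM or more and 300 bases or more. Sequences are from RefSeq, whose R64 genome matches the position of 99.1% of the identifiers found in it. Protein sequences were not used here.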

Additional observations from a re-analysis of the deposited data

Results flagged for a closer look

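In groups of 5 or 6 libraries, 136 sets of values of the named genes were looked at for a library far from the rest of its window, by its gap to the next value against the range, and 5 stood out; chance marks about 1 in 20, and times of a course differ by more than chance. PRE7 was at 671.7 FPKM at 4.5 h, where the next highest of its window was 208. RPT6 was at 106.5 at 4.5 h, against 45.9. PRE1 was at 217.9 at 4.25 h, against 138. RPN5 was at 187.8 at 3 h, against 119. RPN4 was at 83.8 at 2 h, against 49.5 at the next.

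At 4.5 h some subunit genes departed from both neighbouring libraries. PRE7 went from 208 FPKM at 4.25 h to 672 and back to 173 at 4.75 h, and PUP1 from 111 to 167 to 114. After scaling, the departure from the mean of both neighbours was 2.25 for PRE7 and 1.27 for RPT6 on the log2 scale. The SD over the 33 genes was 0.56, the highest of the 20 libraries that have neighbours on both sides from 2.25 to 8 h. It was 0.55 at 7.5 h and 0.52 at 8 h, and over 4104 genes it was 0.96 at 4.5 h. At 4.5 h 2 of the 33 genes departed by at least 1, where 11.9% of 4104 genes did. At 7.5 h 2 of the 33 did, against 20.4% of 4104 genes. Whether this is of the library or of the cells was not tested.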

How the results depend on the processing

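Without 1 library in turn, the count of subunit genes called was 33 for the curve over time, 0 for each pair of neighbouring early windows, 32 to 33 for the late fall and 30 to 31 for late against early. Over all 6560 tested genes the calls in either direction were 5210 to 5494 for the curve and 2522 to 3760 for the late fall. They were 2923 to 3928 for late against early, and 0 to 48 and 98 to 314 for the neighbouring early windows. For 4.75 to 6 h against 2 to 3 h the count of subunit genes was 3 to 18 against the 8 reported (450 to 954 over all genes). It was 4 after median-of-ratios scaling, 5 after quantile normalisation and 1 with windows moved by 1 library. Of the 2 h and 0 h libraries, 6 genes past 2-fold became 2 with a pseudocount of 5 and 1 after scaling. SEM1 in the late fall reversed to 0.10 on the log2 scale after scaling. The causes were not tested. The curve with 3 degrees of freedom counted 23 genes as rising and 10 as falling. Leaving out 7 and 7.5 h, chosen after seeing the data, gave 33 and 29 genes called lower in the late window against 4.75 to 6 h and 2 to 3 h. Counts over all genes are not given here for the curve with 3 degrees of freedom or without 7 and 7.5 h. Late values rest on few fragments: at 7.5 h 4 of the 33 genes had a lower bound of 0. No paired analysis was possible because each time has 1 library.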
